A study of Homo sapiens with 3 samples.

Results

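The genes described here encode the proteasome, its activators, its inhibitor and its assembly chaperones, in LNCaP-abl prostate cancer cells with and without silencing of the transcription factor E2F1. They were chosen by name, as every listed symbol made of PSMA, PSMB, PSMC, PSMD, PSME, PSMF or PSMG and a number, which gave 44 of 22613 listed genes. The names PSMC3IP, PSMD6-AS2 and PSMG3-AS1 start alike but do not meet that rule, and no pseudogene name was among the rows. Of the 5 immunoproteasome genes named in the rule, PSMB10, PSME1 and PSME2 were measured, and PSMB8 and PSMB9 were not analysed here.

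The siE2F1 group was 1 library of LNCaP-abl cells transfected with a pool of siRNAs against E2F1, and the siCon group was 2 libraries, numbered 0 and 1, of the same line transfected with control siRNA. RNA was taken 72 h after transfection in both groups. LNCaP-abl was derived from the LNCaP prostate cancer line and grows without androgen; both groups were kept in medium with steroid-stripped serum. The siE2F1 values have no replicate, and no label tells if siCon 0 and siCon 1 were separate cultures, so every p-value below measures only the spread between 2 libraries, which may be technical.

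Levels are given as FPKM, fragments per kilobase of transcript scaled to the mapped total, which can be compared between genes per length. The deposited values may not be scaled to that total alone. Once sorted, they differ between libraries by at most 0.0653 on the log2 scale, as after quantile normalization. Fold changes are differences of log2(FPKM + 1), siE2F1 minus the mean of the controls, a scale that understates the change of low genes. Read counts were not given, so depth is unknown. E2F1 stood at 1.68 FPKM in siE2F1 cells, against 10.6 FPKM in each siCon library (log2 fold change -2.12, limma adjusted p = 0.0311). Of 9 markers of prostate luminal cells, 8 were above the filter of 1 FPKM, and KLK3 was below it at 0.156 FPKM in siE2F1 cells and 0.152 and 0.0531 FPKM in siCon cells. Of 13 markers of other cell types 5 were listed, of which LYZ alone was above the filter, with a summed level of 6.08 FPKM in siE2F1 cells and 6.56 and 6.59 FPKM in siCon cells.

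The proteasome degrades proteins tagged with ubiquitin. Its 20S core is a barrel of alpha rings (PSMA genes), which gate the entry, around beta rings (PSMB genes), which hold the proteolytic sites. The 19S cap unfolds substrates with a ring of ATPases (PSMC genes) and binds and removes ubiquitin with the other subunits (PSMD genes). Interferon induces an alternative set, the immunoproteasome, in which PSMB8, PSMB9 and PSMB10 replace the catalytic subunits PSMB5, PSMB6 and PSMB7 and the activator PA28, made of PSME1 and PSME2, docks on the core; it is known for making peptides for class I antigen presentation.

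Promoter sequences are shown first because interferon-response factors and E2F1 both recognise short DNA motifs, and the levels of the genes that carry them follow. RefSeq promoter windows of GRCh38.p14, from 250 bases before to 50 bases after the transcription start, were matched by symbol for 38 of the 44 genes (46 windows). Windows for PSMA7, PSMB1, PSMB6, PSMB7, PSMD4 and PSMG3 were not used here. The core of the interferon-stimulated response element was searched on both strands as GAAANNGAAA. It occurred in 6 of the 46 windows (13%), those of PSMA4, PSMB4, PSMB10, PSME1, PSME2 and PSMG4, and in 3.57% of 35116 windows of all genes. The 3 measured immunoproteasome genes and PSMG4 shared the exact letters GAAAGCGAAA on one of the strands, which 0.0997% of all windows held; that longer search was added after the matches had been seen. The next 4 sequences show it, in capitals, within 100 bases of each promoter on the gene's own strand.
PSMB10 (chr16:67936851-67936950, minus strand): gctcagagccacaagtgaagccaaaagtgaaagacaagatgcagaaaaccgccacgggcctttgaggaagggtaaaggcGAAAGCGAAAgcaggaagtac
PSME1 (chr14:24136114-24136213, plus strand): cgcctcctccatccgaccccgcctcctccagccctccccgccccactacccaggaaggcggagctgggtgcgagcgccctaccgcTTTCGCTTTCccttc
PSME2 (chr14:24146611-24146710, minus strand): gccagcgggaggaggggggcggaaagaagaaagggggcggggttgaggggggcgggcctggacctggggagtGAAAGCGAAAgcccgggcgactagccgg
PSMG4 (chr6:3258847-3258946, plus strand): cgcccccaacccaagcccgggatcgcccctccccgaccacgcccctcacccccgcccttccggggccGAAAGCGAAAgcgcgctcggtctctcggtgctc
The match begins 21 bases before the start in PSMB10, 28 before it in PSME2 and 33 before it in PSMG4. In PSME1 it lies on the other strand, from base 6 after the start.

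An E2F motif was searched as TTTGGCGC and as TTTCGCGC on both strands. The first form was found in the windows of PSMD5 and PSMD9, 2 of 46 (4.35%), against 0.652% of all windows. The second form was in none of the 46 and in 0.515% of all windows. The E2F letters are in capitals in the next sequences, 100 bases for PSMD9 and 30 bases for PSMD5, each on the gene's own strand.
PSMD9 (chr12:121888690-121888789, plus strand): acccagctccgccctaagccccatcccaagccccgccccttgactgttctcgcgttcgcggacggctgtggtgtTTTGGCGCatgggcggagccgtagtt
PSMD5 (chr9:120842879-120842908, minus strand): tggcagcccaggcTTTGGCGCtgctgagag
The match lies 26 bases before the start in PSMD9 and from base 28 after the start in PSMD5. The letters TGACNNNGC, which many sites of CNC-MAF factors such as NFE2L1 contain, were in 14 of the 46 windows (30.4%) and in 13.3% of all windows, and the NF-Y box CCAAT in 18 (39.1%) and 34.6%. A match is a run of letters and does not show that a factor binds there.

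As a set, the 44 genes lay slightly lower in siE2F1 cells. All 44 passed the filter of a mean of at least 1 FPKM. The siE2F1 level was below both controls for 36 genes, above both for 4 and between them for 4, whereas 39.7% of all 14401 genes tested were below both controls and 43.7% above both. For 31 genes siE2F1 lay below both controls by more than the gap between the controls, a position that 29.1% of all genes tested took, and for 4 it lay above by more than that gap (30.4% of all genes tested). The median log2 fold change was -0.14, the median over all genes tested was 0.01, and siCon 1 minus siCon 0 had a median of -0.004 over the 44 genes. In bulk RNA, fewer cells that express a gene and less RNA per cell cannot be told apart. The summed level was 3384 FPKM in siE2F1 cells, against 3827 and 3854 FPKM in siCon cells, so siE2F1 held 88.1% of the control mean.

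No proteasome gene passed limma's test over all 14401 genes, which called 0.104% of them lower and 0.312% higher (0.417% in either direction) at an adjusted p of 0.05. Of the genes called in that fit E2F1 had the smallest change in size, with a log2 fold change of -2.12, and that of every proteasome gene was smaller (1.02 in size at most), so a missed call there does not show that a proteasome gene was unchanged. At an unadjusted p under 0.05, limma had 10 of the 44 lower and 1 higher, against 14.9% and 13.5% of all genes tested. Limma's prior degrees of freedom, which set how much the spread is shared between genes, were 1.69 over all genes and 3.19 once 473 small RNA genes were left out. In that second fit 5 of the 44 passed, all lower (PSMD5, PSMB6, PSMD12, PSMD14 and PSMC3), where 6.36% of 13928 genes were called lower and 4.17% higher (10.5% in either direction). The share of 5 in 44 is 11.4%. On the log2(FPKM + 1) scale no proteasome gene was at least 2-fold below both controls, a position taken by 0.833% of all genes tested, and none was at least 2-fold above both (0.743% of all genes tested). In FPKM with nothing added, 1 of the 44, PSMD5, was at least 2-fold below both controls, as were 2.31% of all genes tested.

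**Figure D1:**
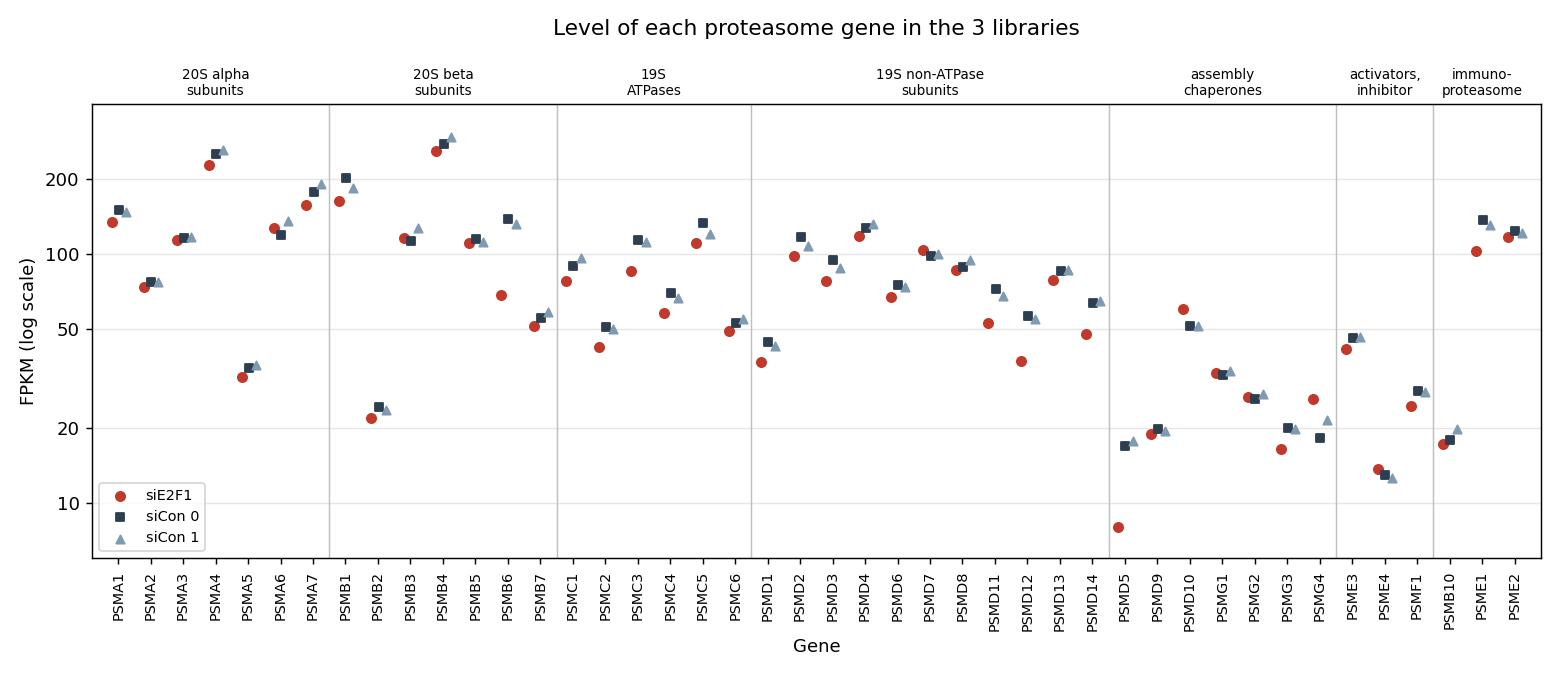
FPKM on a log scale of the 44 proteasome genes, by class, in the siE2F1 library (circles), siCon 0 (squares) and siCon 1 (triangles). Most circles sit just under both control symbols; PSMD5 (8.01 FPKM in siE2F1) and PSMB6 (68.6 FPKM) lie furthest below, and PSMG4 (26.2 FPKM) lies above.

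Within the 20S core, the beta subunit PSMB6 stood apart. PSMB6 carries the caspase-like activity of the constitutive core. Its level was 68.6 FPKM in siE2F1 cells, against 138.0 and 132.2 FPKM in siCon cells, or 50.7% of the control mean. The siE2F1 value was far below both controls, which lay close together. The log2 fold change of PSMB6 was -0.97 ± 0.07 (SE; limma adjusted p = 0.111 over all genes and 0.0272 without small RNA genes). It was the 276th lowest fold change of the 14401 genes. Among its nearest protein-coding neighbours, GLTPD2 was at 2.45 FPKM in siE2F1 cells and 2.48 and 2.23 FPKM in siCon cells, and PLD2 at 4.30 FPKM in siE2F1 cells and 4.50 and 3.88 FPKM in siCon cells. Both had siE2F1 values between the controls. C17orf114, which lies between PSMB6 and PLD2 in that order, has no values here. VMO1, next to GLTPD2, was under the filter and below both controls, at 0.212 FPKM in siE2F1 cells and 0.570 and 0.677 FPKM in siCon cells. These neighbours were looked up after the PSMB6 values had been seen.

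The other catalytic subunits were nearer to the controls. PSMB5, with the chymotrypsin-like site, had 110.6 FPKM in siE2F1 cells and 114.9 and 111.4 FPKM in siCon cells (log2 fold change -0.03, limma adjusted p = 0.768). PSMB7, with the trypsin-like site, had 51.3 FPKM in siE2F1 cells and 55.4 and 58.5 FPKM in siCon cells (log2 fold change -0.15, limma adjusted p = 0.300). In both, siE2F1 was the lowest library by a small margin. The ratio of PSMB6 to PSMB5 was therefore 0.620 in siE2F1 cells, against 1.20 and 1.19 in siCon cells, while that of PSMB7 to PSMB5 was 0.464 in siE2F1 cells, against 0.483 and 0.525 in siCon cells.

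Although the core holds each of its subunits in equal number, their transcript levels spanned a wide range in every library. The order, per length, was nearly the same in the 3 libraries. PSMB4 was the highest of the 14 subunits, at 259 FPKM in siE2F1 cells and 275 and 294 FPKM in siCon cells, and PSMA4, an alpha ring subunit, was second. PSMB2 was the lowest, at 22.0 FPKM in siE2F1 cells and 24.3 and 23.5 FPKM in siCon cells, and PSMA5 the next lowest. PSMB6 took place 11 of 14 in siE2F1 cells, against places 6 and 7 in siCon cells. The genes in the middle of the order (PSMA3, PSMA6, PSMB3 and PSMB5) lay too close to be ranked beyond the difference between the controls.

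**Figure D2:**
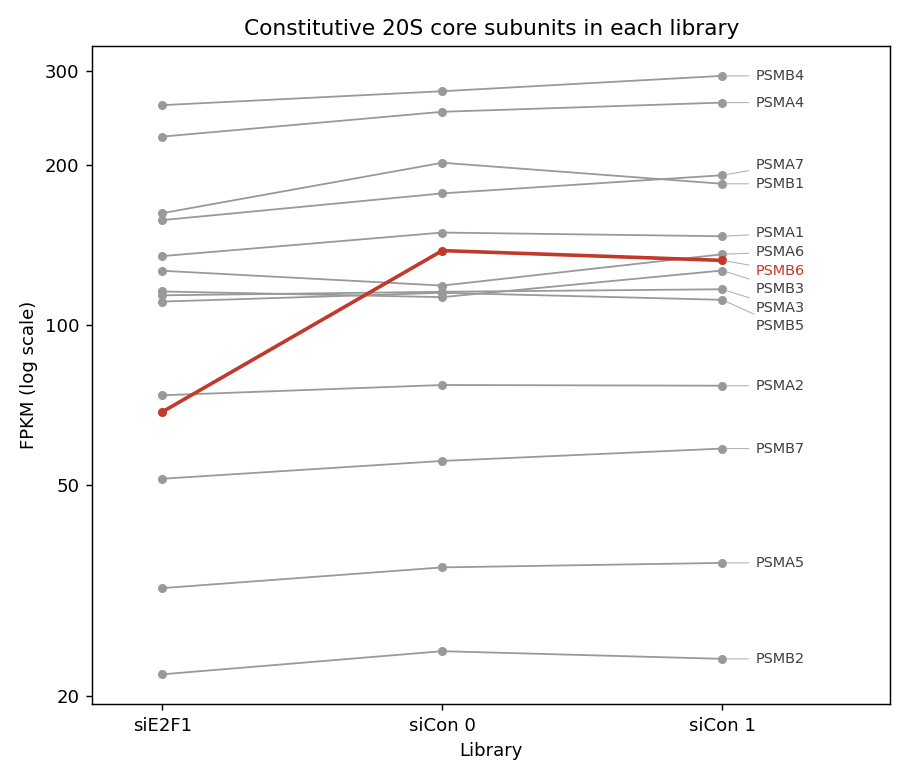
FPKM on a log scale of the 14 constitutive 20S core subunits in siE2F1, siCon 0 and siCon 1, with 1 line per gene. The line of PSMB6 (red) crosses those of 4 to 5 other subunits between siE2F1 and the controls, while the other lines run nearly level.

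The 7 alpha subunits differed little. For 6 of them siE2F1 lay below both controls (39.7% of all genes tested) and for PSMA6 between them. Their log2 fold changes were -0.22 to -0.01, with a median of -0.135. PSMA7 was at the lower end, with 157.4 FPKM in siE2F1 cells and 176.8 and 191.3 FPKM in siCon cells. PSMA6 was at the upper end, with 126.4 FPKM in siE2F1 cells and 118.6 and 135.8 FPKM in siCon cells. The limma adjusted p of the alpha subunits was 0.234 or more over all genes. Of the 7 constitutive beta subunits, 6 were below both controls (39.7% of all genes tested) and PSMB3 was between them. Apart from PSMB6, the beta subunit with the lowest fold change was PSMB1, at 162.2 FPKM in siE2F1 cells and 201.9 and 184.3 FPKM in siCon cells.

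Genes of the 19S cap were below the controls almost throughout. Of its 17 subunits that carry a PSMC or PSMD name, 16 were below both controls (39.7% of all genes tested). Their median log2 fold change was -0.23 and that of the 14 core subunits -0.135; the difference between these medians was not tested. All 6 ATPases, which form the unfolding ring, were below both controls (log2 fold changes -0.40 to -0.14). PSMC3 was the lowest of them, at 84.9 FPKM in siE2F1 cells, against 113.7 and 111.3 FPKM in siCon cells (log2 fold change -0.40, limma adjusted p = 0.115 over all genes and 0.0479 without small RNA genes). PSMC6 was nearest to the controls, at 48.8 FPKM in siE2F1 cells and 52.9 and 54.6 FPKM in siCon cells.

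A group of 3 lid genes of the 19S cap, picked by their fold changes, had lower log2 fold changes than most of the cap. This was not particular to the lid: the ATPase PSMC3 was in the same range (-0.40), and the lid gene PSMD7 had 0.07. PSMD12, a scaffold subunit of the lid, had 37.2 FPKM in siE2F1 cells, against 56.3 and 54.7 FPKM in siCon cells (log2 fold change -0.57, limma adjusted p = 0.111 over all genes and 0.0365 without small RNA genes). PSMD14, the deubiquitinase that removes ubiquitin chains from substrates, had 47.7 FPKM in siE2F1 cells, against 63.5 and 64.9 FPKM in siCon cells (log2 fold change -0.42, limma adjusted p = 0.112 and 0.0453). PSMD11, another lid scaffold, had 52.5 FPKM in siE2F1 cells, against 71.97 and 67.9 FPKM in siCon cells (log2 fold change -0.41), and missed the threshold in both fits (limma adjusted p = 0.125 and 0.0538). In each of the 3 genes siE2F1 was below both controls by several times the gap between them.

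PSMD7, the lid subunit that pairs with PSMD14, was the 1 of these 17 genes above both controls. It had 103.7 FPKM in siE2F1 cells and 97.8 and 99.6 FPKM in siCon cells (log2 fold change 0.07, limma adjusted p = 0.513). Its partner PSMD14 thus had a log2 fold change of the other sign. The remaining 7 non-ATPase subunits were all below both controls, with log2 fold changes from -0.24 for PSMD1, a large scaffold, to -0.08 for PSMD8. The summed level of the cap was 74.1% of that of the core in siE2F1 cells, against 77.4% and 74.4% in siCon cells, so siE2F1 had the lowest ratio, but by less than the gap between the controls.

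The assembly chaperones, which build the core and the cap and then leave, held the lowest and the highest fold changes of all 44 genes. PSMD5, a chaperone of the cap's base, had 8.01 FPKM in siE2F1 cells, against 16.9 and 17.7 FPKM in siCon cells, or 46.3% of the control mean. The siE2F1 value was well outside the controls. PSMD5 had a log2 fold change of -1.02 ± 0.0667 (SE; limma adjusted p = 0.111 over all genes and 0.0272 without small RNA genes), the 247th lowest of 14401. On one side of PSMD5, PHF19 was below both controls, at 3.71 FPKM in siE2F1 cells and 5.58 and 6.29 FPKM in siCon cells (log2 fold change -0.56, limma adjusted p = 0.123 over all genes and 0.0482 without small RNA genes). On the other side the nearest gene, B3GALT9, has no values here. The next one, FBXW2, was above both controls, at 9.85 FPKM in siE2F1 cells and 8.16 and 8.04 FPKM in siCon cells. These neighbours were looked up after the PSMD5 values had been seen. PSMD5 is 1 of the 2 genes with the E2F letters shown above. The other, PSMD9, also a chaperone of the base, had 18.97 FPKM in siE2F1 cells and 19.8 and 19.4 FPKM in siCon cells (log2 fold change -0.04, limma adjusted p = 0.654). PSMD10 (gankyrin), a further base chaperone, was above both controls, at 59.9 FPKM in siE2F1 cells and 51.5 and 51.2 FPKM in siCon cells (log2 fold change 0.22, limma adjusted p = 0.167 over all genes and 0.125 without small RNA genes). The 3 base chaperones therefore differed from each other in position: below, slightly below and above the controls.

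PSMG1 to PSMG4 help to assemble the core. PSMG4 had 26.2 FPKM in siE2F1 cells, against 18.2 and 21.5 FPKM in siCon cells, the highest log2 fold change of the 44 genes (0.39 ± 0.134, SE). The controls themselves lay 0.23 apart on the log2 scale, the widest gap of any member, and the limma adjusted p was 0.209 over all genes and 0.115 without small RNA genes. PSMG3, its partner in the chaperone pair, was on the other side, at 16.5 FPKM in siE2F1 cells and 19.99 and 19.8 FPKM in siCon cells (log2 fold change -0.26, limma adjusted p = 0.144). The ratio of PSMG4 to PSMG3 was 1.59 in siE2F1 cells, against 0.911 and 1.09 in siCon cells. PSMG1 and PSMG2, the other pair, both lay between the controls. Over the 7 chaperones, 3 were below both controls (42.9%, near the 39.7% of all genes tested) and 2 above (43.7% of all genes tested were above both). Their median log2 fold change was -0.01.

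**Figure D3:**
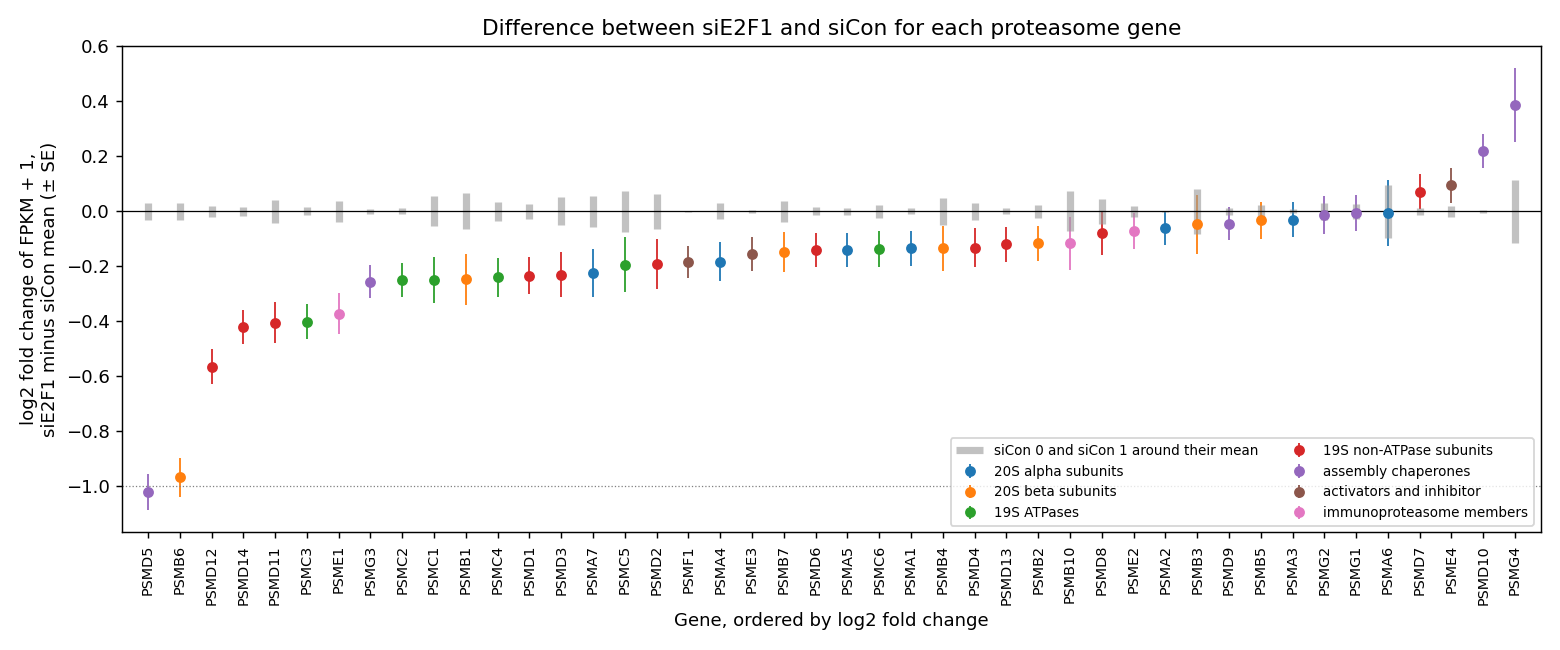
Difference of log2(FPKM + 1) between siE2F1 and the siCon mean for the 44 genes, ordered from lowest to highest, with limma's standard error; colours give the class, and grey bars span the 2 controls around their mean. PSMD5 (-1.02) and PSMB6 (-0.97) are set off from the next gene, PSMD12 (-0.57), and 4 genes lie above the controls.

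The immunoproteasome genes were not higher in siE2F1 cells. PSME1, the alpha subunit of PA28, had 102.9 FPKM in siE2F1 cells, against 136.9 and 129.9 FPKM in siCon cells (log2 fold change -0.37 ± 0.0741 (SE), limma adjusted p = 0.130 over all genes and 0.0600 without small RNA genes). PSME2, the beta subunit, had 116.4 FPKM in siE2F1 cells and 123.9 and 120.7 FPKM in siCon cells (log2 fold change -0.07, limma adjusted p = 0.532). PSMB10, the inducible trypsin-like subunit, had 17.3 FPKM in siE2F1 cells and 17.9 and 19.9 FPKM in siCon cells (log2 fold change -0.12, limma adjusted p = 0.489). All 3 were thus lowest in siE2F1, a position that 39.7% of all genes tested took, and none passed in either fit. For PSMB10 the siE2F1 value lay below siCon 0 by less than the gap between the controls.

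Set beside the other 41 genes, the 3 were in the same range. Their median log2 fold change was -0.12, against -0.14 for the others, of which 33 were below both controls. The order of these medians turned with the control used: against siCon 1 alone they were -0.189 for the 3 and -0.159 for the others, and PSMB10 itself had -0.189 against siCon 1 and -0.04 against siCon 0. The ratio of PSME1 to PSME2 was 0.884 in siE2F1 cells, against 1.11 and 1.08 in siCon cells, so PSME2 was the more abundant of the pair, per length, in siE2F1 cells only among the 3 libraries. PSMB10 stood at 33.7% of the level of PSMB7, the subunit it replaces, in siE2F1 cells, against 32.2% and 34.0% in siCon cells, so the siE2F1 ratio lay between the controls.

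The activators and the inhibitor outside the immunoproteasome also stayed near the controls. PSME3, the nuclear activator PA28 gamma, had 41.4 FPKM in siE2F1 cells and 46.0 and 46.5 FPKM in siCon cells (log2 fold change -0.15, limma adjusted p = 0.235). PSME4, the activator PA200, was above both controls at 13.7 FPKM in siE2F1 cells and 12.9 and 12.6 FPKM in siCon cells (log2 fold change 0.09, limma adjusted p = 0.404). PSMF1, the inhibitor PI31, had 24.5 FPKM in siE2F1 cells and 28.0 and 27.9 FPKM in siCon cells (log2 fold change -0.18, limma adjusted p = 0.193). None of the 3 passed.

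Among genes that carry the interferon signal to the immunoproteasome promoters, 6 of the 8 tested were above both controls and 1 below in the same library. Over all genes tested the share above was 43.7%. Their median log2 fold change was 0.195, against 0.01 over all genes tested. None of the 8 was called by limma over all genes, while 4 were higher at an unadjusted p under 0.05 (13.5% of all genes tested). Without small RNA genes 1 passed, IRF9, which was higher (4.17% of all genes in that fit were called higher). IRF9, which joins STAT proteins on the response element, had 11.2 FPKM in siE2F1 cells, against 4.29 and 4.13 FPKM in siCon cells (log2 fold change 1.23, limma adjusted p = 0.0945 over all genes and 0.0221 without small RNA genes). STAT2 had 22.4 FPKM in siE2F1 cells and 15.98 and 13.2 FPKM in siCon cells (limma adjusted p = 0.151 and 0.0641). IFNGR1, a chain of the interferon gamma receptor, had 13.99 FPKM in siE2F1 cells and 9.95 and 10.6 FPKM in siCon cells (limma adjusted p = 0.121 and 0.0546). IRF1, a factor known to activate immunoproteasome genes, had 3.89 FPKM in siE2F1 cells and 4.07 and 3.70 FPKM in siCon cells, between the controls.

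IRF9 is a close neighbour of the PA28 genes. In RefSeq's order of protein-coding genes, PSME1, EMC9, PSME2, RNF31 and IRF9 follow each other. EMC9, a subunit of a membrane insertion complex, had 16.5 FPKM in siE2F1 cells and 21.4 and 20.7 FPKM in siCon cells (log2 fold change -0.34). RNF31, a ubiquitin ligase that makes linear chains, had 12.2 FPKM in siE2F1 cells and 13.4 and 12.5 FPKM in siCon cells (log2 fold change -0.09). Of these 5 adjacent genes, IRF9 was thus above both controls and the other 4 below them. For RNF31 the distance below siCon 1 was less than the gap between the controls, and PSME2 had a log2 fold change of only -0.07. The neighbours were looked up after the values of the PA28 genes had been seen.

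Class I antigen presentation, which uses the peptides of the immunoproteasome, was measured through 8 of the 16 listed genes. Of the 7 tested, 4 were above both controls (43.7% of all genes tested) and 2 below, with a median log2 fold change of 0.44, and 0 passed limma over all genes, where 4 had an unadjusted p under 0.05, all higher (13.5% of all genes tested). Without small RNA genes 2 passed, both higher: B2M and the tapasin-related TAPBPL (4.17% of all genes in that fit were called higher). B2M, the light chain of class I molecules, had 473 FPKM in siE2F1 cells, against 305 and 342 FPKM in siCon cells (log2 fold change 0.55, limma adjusted p = 0.130 and 0.0475). CALR, a chaperone of peptide loading, had 922 FPKM in siE2F1 cells and 687 and 615 FPKM in siCon cells (limma adjusted p = 0.137 and 0.0521). ERAP1, the peptidase that trims the peptides, had 6.90 FPKM in siE2F1 cells and 4.97 and 4.58 FPKM in siCon cells (limma adjusted p = 0.121 and 0.0529). CANX and PDIA3 were below both controls, as the 3 immunoproteasome genes were, and NLRC5 lay between the controls. CANX had 124.1 FPKM in siE2F1 cells and 141.4 and 132.7 FPKM in siCon cells. PDIA3 had 160.3 FPKM in siE2F1 cells and 186.2 and 178.3 FPKM in siCon cells. Only the 4 class I genes above both controls thus lay on the other side from the immunoproteasome genes in the same library. That difference was not tested.

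**Figure D4:**
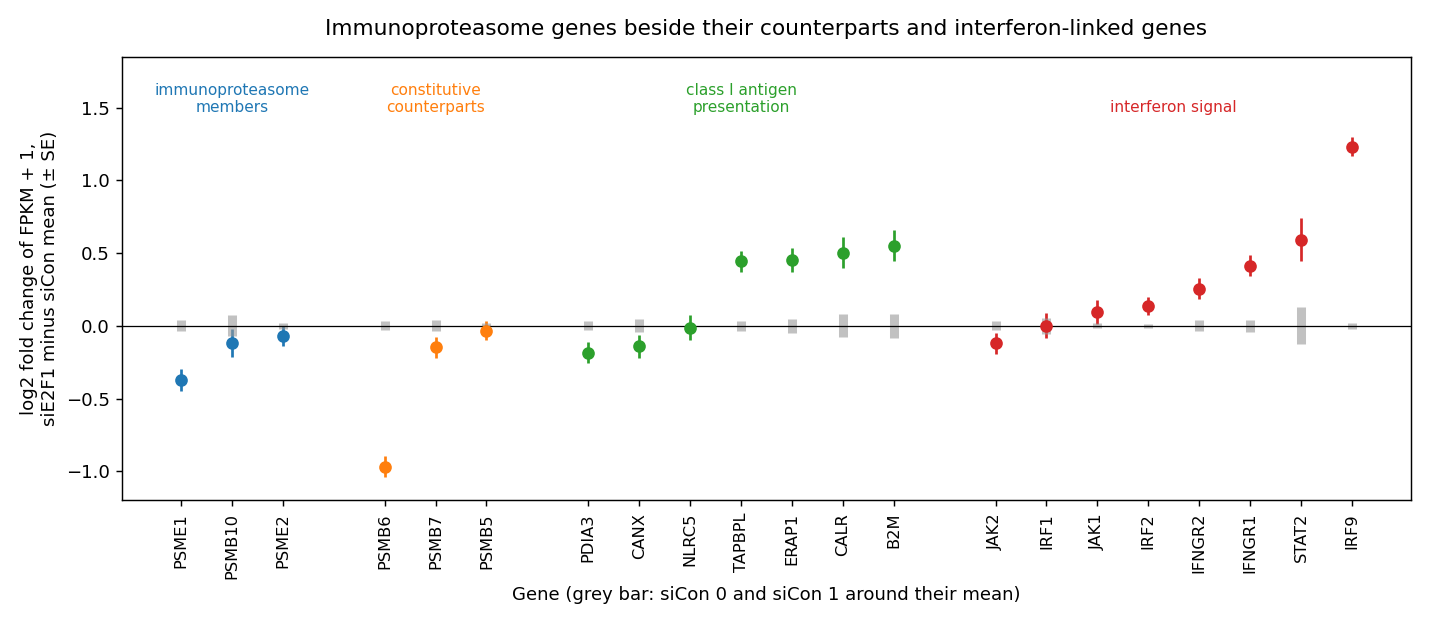
Difference of log2(FPKM + 1) between siE2F1 and the siCon mean, with limma's standard error, for the measured immunoproteasome genes, their constitutive counterparts, class I antigen presentation and the interferon signal; grey bars span the controls around their mean. The 3 immunoproteasome genes lie at -0.37 to -0.07, while B2M (0.55) and IRF9 (1.23) lie above the controls. CANX (-0.14), PDIA3 (-0.18) and JAK2 (-0.12) lie below the controls.

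Of 15 tested partners of the proteasome that do not carry its gene names, 10 were below both controls and 3 above. Over all genes tested the share below was 39.7%. Their median log2 fold change was -0.125. None of the 15 was called by limma over all genes, while 4 were lower at an unadjusted p under 0.05 (14.9% of all genes tested). Without small RNA genes 2 passed, both lower, UCHL5 and ZFAND5 (6.36% of all genes in that fit were called lower). UCHL5, a deubiquitinase of the cap, had 11.4 FPKM in siE2F1 cells, against 18.6 and 18.1 FPKM in siCon cells (log2 fold change -0.65, limma adjusted p = 0.111 over all genes and 0.0350 without small RNA genes). ZFAND5, a proteasome-binding zinc finger protein, had 13.2 FPKM in siE2F1 cells and 18.7 and 18.9 FPKM in siCon cells (limma adjusted p = 0.111 and 0.0403). ADRM1, a ubiquitin receptor of the cap, had 61.4 FPKM in siE2F1 cells and 79.5 and 88.2 FPKM in siCon cells (limma adjusted p = 0.140 and 0.0622). The 3 partners above both controls did not pass in either fit. SHFM1, a small subunit of the cap's lid, had 179.6 FPKM in siE2F1 cells and 161.3 and 169.7 FPKM in siCon cells (log2 fold change 0.12). KIAA0368, which links the proteasome to other cell compartments, had 20.7 FPKM in siE2F1 cells and 18.4 and 16.9 FPKM in siCon cells (log2 fold change 0.22). UBQLN2, a shuttle for ubiquitinated proteins, had 32.6 FPKM in siE2F1 cells and 30.02 and 29.03 FPKM in siCon cells (log2 fold change 0.14).

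Of 12 genes that control proteasome transcription or its stress response, 8 were below both controls (39.7% of all genes tested) and 3 above (median log2 fold change -0.11), and 0 passed limma over all genes, where 4 had an unadjusted p under 0.05, all lower (14.9% of all genes tested). Without small RNA genes 2 passed, both lower (6.36% of all genes in that fit were called lower). FOXM1, a transcription factor of the G2/M phase, had 12.6 FPKM in siE2F1 cells, against 21.4 and 19.9 FPKM in siCon cells (limma adjusted p = 0.111 over all genes and 0.0364 without small RNA genes). MAFG, a small MAF protein that pairs with NFE2L1, had 6.63 FPKM in siE2F1 cells and 10.5 and 10.6 FPKM in siCon cells (limma adjusted p = 0.111 and 0.0364). NFE2L1 itself, which induces proteasome genes when the proteasome is impaired, had 34.0 FPKM in siE2F1 cells and 45.9 and 42.2 FPKM in siCon cells (limma adjusted p = 0.146 and 0.0745).

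Ubiquitin supply genes lay on both sides of the controls. Of 6 genes tested, 4 were above both controls (43.7% of all genes tested) and 2 below (39.7% of all genes tested). In either limma fit 0 passed. Over all genes 1 had an unadjusted p under 0.05 and was higher (13.5% of all genes tested). UBB, 1 of the 2 below both controls, had 1057 FPKM in siE2F1 cells and 1158 and 1137 FPKM in siCon cells. RPS27A, which encodes ubiquitin fused to a ribosomal protein, had 509 FPKM in siE2F1 cells and 437 and 487 FPKM in siCon cells. UBA6, a ubiquitin-activating enzyme, had 15.3 FPKM in siE2F1 cells and 11.2 and 12.1 FPKM in siCon cells (log2 fold change 0.36, limma adjusted p = 0.139 over all genes and 0.0723 without small RNA genes). UBA1, the main activating enzyme, had 105 FPKM in siE2F1 cells and 102 and 81.0 FPKM in siCon cells.

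Reads shared with related genes limit some of these values. In GENCODE v29, 12 of the 44 genes have pseudogenes named after them, among them PSMC1 with 13, PSMA6 with 4, PSME2 with 2 and PSMD12 with 1, and the authors' handling of such reads is not stated in the labels. PSMD5, PSMB6, PSMD14 and PSMC3 have none by that name search. The library kit is not stated to keep strand, so reads from antisense genes could count towards their partners; PSMG3-AS1 had 0.0714 FPKM in siE2F1 cells and 0.0558 and 0.0307 FPKM in siCon cells, and PSMD6-AS2 had 0.546 FPKM in siE2F1 cells and 0.441 and 0.616 FPKM in siCon cells.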

How the data were processed

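RNA-seq of LNCaP-abl cells gave 1 siE2F1 and 2 siCon libraries, grouped by sample title. TopHat2 2.0.4, Cufflinks 2.0.2 and hg19 are named, without parameters, in the submitters' processing notes. The deposited values are log2 FPKM, per the file names; the authors' lowest value equals 0.1 FPKM, read here as an added amount and subtracted. Sorted values differ between libraries by at most 0.0653, as after quantile normalization, so a shift shared by most genes cannot be seen.

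A mean of 1 FPKM or more was required (14401 genes), and log2(FPKM + 1) was fitted with limma 3.58.1 in R 4.3.3 (mean-variance trend, two-sided, Benjamini-Hochberg), a step also tested on simulated data. Only the controls give a spread (1 residual degree of freedom), which the siE2F1 library is assumed to share. Alternatives varied the pseudocount, filter, scaling, variance trend, small RNA genes, the reading of the lowest value and each control. Described in full were immunoproteasome genes, PSMB5 to PSMB7, called genes and up to 6 per direction furthest from the controls; then the extremes of each class and up to 3 genes per list. PSMB1, PSMD9, PSMG3, PSME3, PSMF1, IRF1, JAK2, TAPBPL, CANX, PDIA3, NLRC5, UBB, SHFM1, KIAA0368, UBQLN2, KLK3, LYZ and neighbouring or left-out genes were named after their values were seen. Members and lists were chosen with earlier results of these data known. Some list members are left out and not reported here.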

Additional observations from a re-analysis of the deposited data

How the results depend on the processing

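Of the 120 values of the 15 fully described genes under an alternative with a test, 115 kept their side of the threshold. Part of that count was fixed in advance. The common median moved no library (largest shift 0), so its values repeat the main ones. Sorted values nearly agreed between libraries already, so quantile normalization could change little (59 genes called over all genes). The filters, the variance trend, the common median and leaving out small RNA genes cannot move a gene's fold change, so its sign says nothing there. The other 5 values passed without small RNA genes (PSMD5, PSMB6, PSMD12, PSMD14 and PSMC3), so that count was 5 there, against 0 under each other setting that gave a test. Over all genes, limma called 1467 without small RNA genes, 18 with a pseudocount of 0.1 and 0 with no filter on mean FPKM, where 4862 had an unadjusted p under 0.05; the main count was 60. E2F1 itself lost its call with a pseudocount of 0.1 (adjusted p = 0.0601, limma) and with no filter (adjusted p = 0.159), over a range of 0.0106 to 0.159 under the settings with a test. The cause of these shifts was not tested. Without one control at a time (values with no test), 4 to 8 of the 44 genes lay above the remaining control and 36 to 40 below it, and the median log2 fold change of the immunoproteasome genes ranged from -0.189 to -0.089, beside -0.159 to -0.146 for the others. Against siCon 0 alone it was -0.09, and 8 genes were above. No paired analysis was possible because siE2F1 is 1 library, whose title gives no replicate number. Depth is unknown, and 1 siE2F1 library leaves its own variation unmeasured.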
